A study of Homo sapiens with 8 samples.

Results

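The genes described here are the human histone cluster genes, taken as every gene whose symbol starts with HIST1H, HIST2H, HIST3H or HIST4H. Of 19709 genes listed in any of the 3 deposited tables, 56 met this rule. They comprise 3 linker histone H1 genes, 14 H2A genes, 18 H2B genes, 10 H3 genes and 11 H4 genes, and 50 of them are annotated as protein-coding and 6 as pseudogenes. By name, 37 belong to the HIST1 cluster on chromosome 6 (with HIST1H2BPS3 placed on chromosome 13), 15 to HIST2 and 3 to HIST3 on chromosome 1, and 1 to HIST4 on chromosome 12. All 56 were listed in the MS8815 table, 52 in the MS8815N table and 49 in the EPZ-6438 table, and 48 were in each of the 3.

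Transcripts were sequenced from SUDHL6, an established human lymphoma line of germinal-centre B cell origin. Cells received 2.5 µM MS8815, a PROTAC directed at EZH2, 2.5 µM MS8815N, an analog control that is not a PROTAC, 2.5 µM EPZ-6438 (tazemetostat), an inhibitor of the enzymatic SET domain of EZH2, or the DMSO vehicle. Every group was collected at 18 h and has 2 libraries. A PROTAC joins its target to a ubiquitin ligase, and EZH2 is the methyltransferase of polycomb repressive complex 2 that modifies lysine 27 of histone H3. The labels do not say whether the 2 libraries of a group are separate cultures, and the p-values here reflect only how far these libraries lie apart, possibly for technical reasons.

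Histone cluster genes encode the core histones that form the nucleosome and the H1 histones that bind linker DNA. Most are transcribed during S phase, lack introns, and give mRNA that ends in a conserved stem-loop bound by SLBP instead of a poly(A) tail. Some members also give polyadenylated transcripts, and HIST1H1C, HIST1H2AC, HIST1H2BD, HIST1H2BK and HIST2H2BE were listed as such. Many H2A and H2B genes stand head to head and share 1 promoter region.

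The stem-loop distinguishes the class, so the forms found in the GENCODE 29 transcripts of the members are shown with the 6-base stem arms in capitals and the 4-base loop in lower case, as DNA letters from 5′ to 3′. A stem-loop was found in an annotated transcript of 28 of the 56 members, and 15 of them, among them HIST3H2A, HIST1H2BE and HIST1H2BN, carried the first form. The second form was in 4 H4 genes, the third in HIST1H4I, HIST2H4A and HIST2H4B, the fourth in 3 H2B genes of HIST1, and the last in HIST1H2AG, HIST2H2BC and HIST2H2BD. A transcript annotated only over its coding bases, such as the 312 bases of HIST1H4K, cannot show a stem-loop. A member without a match may therefore still have one.
Most frequent form: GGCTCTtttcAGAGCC
H4 form with C in the loop: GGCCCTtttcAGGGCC
H4 form without C in the loop: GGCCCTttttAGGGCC
H2B form: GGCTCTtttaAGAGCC
Form whose arms differ from exact complements: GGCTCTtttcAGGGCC

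Promoters of 46 members matched the RefSeq promoter table (GRCh38.p14), which holds 250 bases before and 50 bases after each start. Matches on both strands were counted for the octamer ATTTGCAT, for CCAAT and for TATAAA, none of which contains another. CCAAT was found in 38 of the 46 promoters (82.6%), against 35.7% of all 27305 RefSeq promoters, and in 2 of 10 H4 promoters. TATAAA was found in 31 (67.4%, against 12% of all promoters). The octamer was found in 8 of 13 H2A and 8 of 12 H2B promoters, 1 of 8 H3 promoters and 0 of 10 H4 promoters, against 1.8% of all promoters. The 200 bases before the start are shown for HIST3H2BB (chr1:228457903-228458102, plus strand), which faces HIST3H2A, for HIST1H2BO (chr6:27893225-27893424, plus strand), which faces HIST1H2AM, and for HIST1H4I (chr6:27139082-27139281, plus strand), since these genes or their partners were among those with large differences. Capitals mark the octamer and CCAAT on either strand. HIST1H2BO had 1 octamer and 3 CCAAT matches, HIST3H2BB had 3 CCAAT matches, and HIST1H4I had 1.
HIST3H2BB: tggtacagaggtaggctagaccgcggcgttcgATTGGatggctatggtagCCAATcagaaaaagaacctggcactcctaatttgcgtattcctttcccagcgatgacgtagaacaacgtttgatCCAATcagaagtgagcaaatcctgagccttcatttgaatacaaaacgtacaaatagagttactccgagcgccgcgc
HIST1H2BO: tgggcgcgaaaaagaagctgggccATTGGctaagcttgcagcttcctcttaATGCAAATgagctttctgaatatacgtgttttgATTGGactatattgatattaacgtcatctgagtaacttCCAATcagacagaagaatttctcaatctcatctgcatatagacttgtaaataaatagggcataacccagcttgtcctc
HIST1H4I: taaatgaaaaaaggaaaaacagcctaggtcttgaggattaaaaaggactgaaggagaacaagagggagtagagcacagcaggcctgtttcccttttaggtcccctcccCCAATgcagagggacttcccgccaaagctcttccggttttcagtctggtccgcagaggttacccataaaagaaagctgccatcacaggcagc

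Values below are normalised read counts obtained by inverting the deposited variance-stabilised values, and each table has its own scale. The estimated depth was 12.9 and 14.6 M reads for the MS8815 libraries, 34.0 and 30.1 M for MS8815N, 30.5 and 26.0 M for EPZ-6438, and 30.8 to 31.6 M for DMSO. Members were low in these libraries. In the MS8815 table the median member averaged 34.2 normalised counts over the 4 libraries, against 189.9 for the median gene, and 50 of 56 members lay in the lower 50% of genes. A single read was worth 1.65 and 1.42 normalised counts in the MS8815 libraries and 0.66 and 0.649 in the DMSO libraries.

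With MS8815, 29 of the 56 members were higher than with DMSO and 0 were lower, by limma on the deposited values with Benjamini-Hochberg adjustment over all 18744 genes (adjusted p under 0.05). Of all genes, 24.5% were called higher and 22.4% lower, and among genes of the lower 50% by level 30.3% were called higher, against 46.0% (23 of 50) of the members there. Level here was the mean over all 4 libraries, MS8815 included, so it depended in part on the difference itself. The median log2 fold change was 1.41 over the 56 members and 0.00 over all genes. Both MS8815 libraries lay above both DMSO libraries for 39 members, against 37.9% of all genes, and below for 1, HIST1H4J, against 35.9%. Adjusted p-values of the 29 ran from 6.28e-06 to 0.0497. The 8 members not in all 3 tables include HIST1H4K and HIST1H3A, whose reads were nearly all in MS8815 libraries, and a gene kept in a table through such reads had to differ. In the 48 members of all 3 tables, 23 were higher and the median was 1.09.

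Each library was left out in turn. With a DMSO library out, the spread was estimated from the MS8815 libraries alone. Those lay further apart than the DMSO libraries, with a members' median absolute log2 difference of 0.383 against 0.275. The count of calls depended on which library was left out, and the cause was not tested. Without DMSO library 1, and likewise without DMSO library 2, it was 13 higher and 0 lower. Without MS8815 library 1 it was 33, of which 3 were lower, and without MS8815 library 2 it was 32, of which 2 were lower. The 11 members called with each of the 4 libraries left out in turn were HIST1H1C, HIST1H2AL, HIST1H2BE, HIST1H2BL, HIST1H2BN, HIST1H2BO, HIST1H4I, HIST1H4K, HIST2H3D, HIST2H4A and HIST3H2A. Of these, HIST1H4K was in the table only through its MS8815 reads. The members lower without MS8815 library 1 were HIST2H2BC, HIST2H3A and HIST2H4B, which were at 0 in MS8815 library 2. Those lower without MS8815 library 2 were HIST1H3D and HIST2H2BD, which were at 0 in MS8815 library 1. All but HIST1H3D have a near-identical copy, and the copies are summed below. After quantile normalisation 16 of the 29 were still higher, and HIST1H1B, HIST1H4J and HIST2H2AC were lower. When libraries were instead scaled to the B cell markers, which moves the median of all genes by 0.99 on the log2 scale, 38 members were higher and 0 lower, and the members' median was 2.42. With that scaling 21 of 21 histone chaperones and 22 of 27 S phase genes were called higher too, and 0 lower. The share of all genes called is not given for these refits, so their counts have no background beside them.

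**Figure D1:**
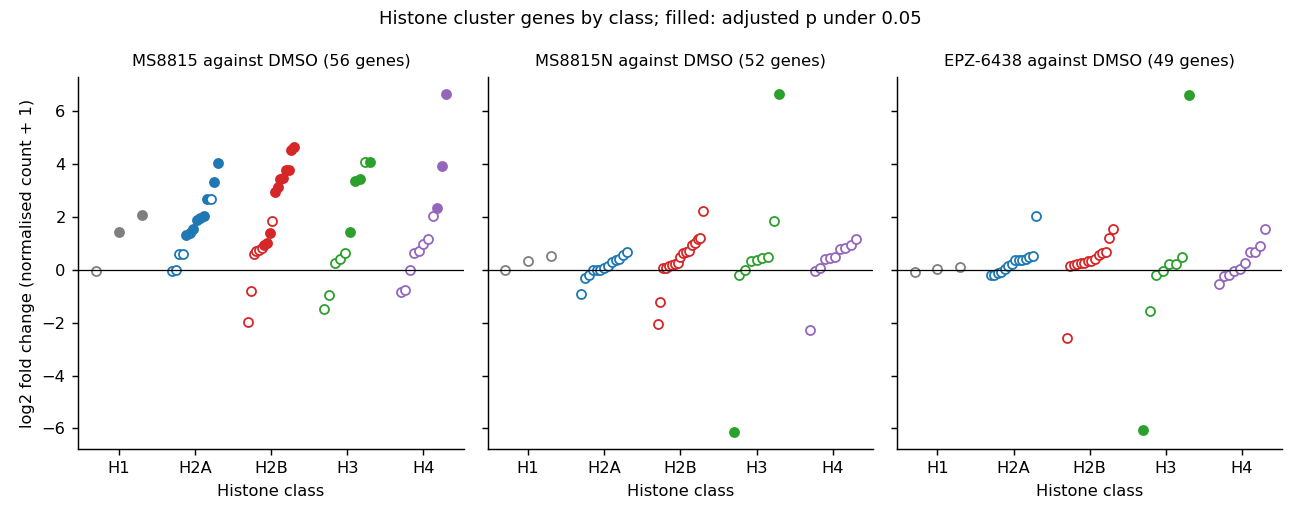
Log2 fold change of each histone cluster gene (y axis, on log2 of normalised count + 1) by histone class (x axis) for MS8815, MS8815N and EPZ-6438, each against DMSO. Filled points passed an adjusted p of 0.05: 29 with MS8815, all above 0, and in both other panels HIST2H3C near 6.6 and HIST2H3A near -6.

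Summed over the members, counts were higher with MS8815 in each of the 5 classes. The members made up 385 and 393 CPM (normalised counts per M normalised counts of the library) with MS8815, against 85.9 and 81.8 with DMSO, a 4.64-fold difference of the means. H2A genes summed to 161 ± 0.479 CPM in MS8815 libraries and 23.1 ± 1.25 in DMSO libraries (SD over 2 libraries), 6.94-fold. The ratio was 4.83 for H4, 4.02 for H3, 3.47 for H2B and 3.16 for H1. HIST3H2A alone held 29.8% of the members' counts with MS8815 and 8.68% with DMSO. Without it the other 13 H2A genes summed to 44.9 ± 2.86 CPM in MS8815 libraries and 15.9 ± 0.319 in DMSO libraries, 2.83-fold, which is below the ratio of each other class. All members without it differed 3.57-fold.

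**Figure D2:**
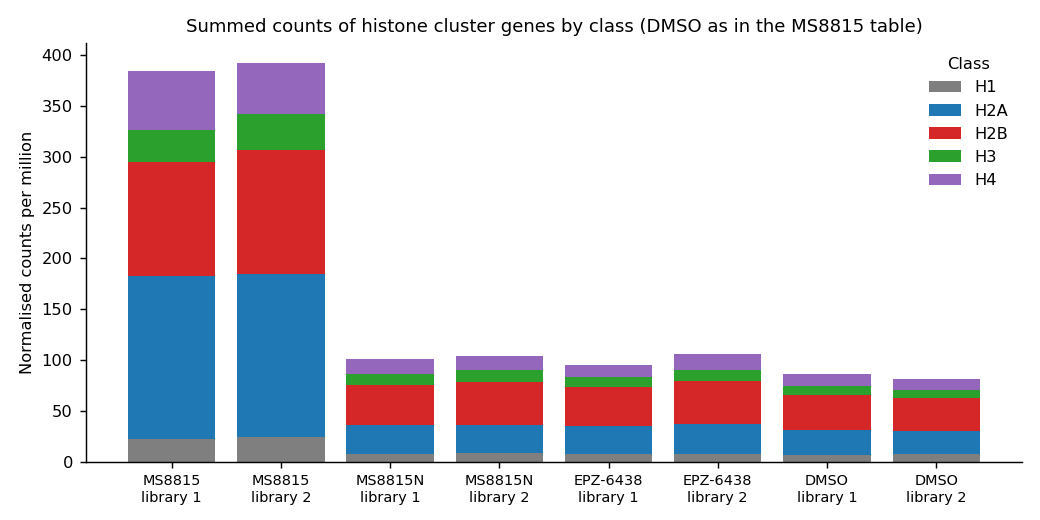
CPM of normalised counts (y axis) summed over histone cluster genes in each library (x axis), stacked by class. The MS8815 libraries reach 385 and 393, the MS8815N libraries 101 and 104, the EPZ-6438 libraries 95.6 and 106, and the DMSO libraries 85.9 and 81.8.

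Among the H2A genes, 9 of 14 were higher with MS8815, against 24.5% of all genes, with a median log2 fold change of 1.71. HIST3H2A, the H2A gene of the HIST3 cluster (chr1:228456979-228457873, minus strand), had 2422 and 2449.9 normalised counts with MS8815, against 161 and 136 with DMSO. Both MS8815 libraries were far above both DMSO libraries, with a log2 fold change of 4.03 ± 0.11 (SE) and a limma adjusted p of 6.28e-06. HIST1H2AC, of the polyadenylated list, had 153 and 174 with MS8815, against 63.3 and 66.3 with DMSO (log2 fold change 1.32, limma adjusted p = 0.0036), and after quantile normalisation it was not called (0.28, adjusted p = 0.293). HIST2H2AC had 31.2 and 19.8 with MS8815, against 24.4 and 25.4 with DMSO, and the groups overlapped.

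Among the H2B genes, 11 of 18 were higher, against 24.5% of all genes, with a median of 1.62. HIST1H2BPS3, HIST2H2BA and HIST2H2BB of the 11 were not in all 3 tables. HIST1H2BE had 341 and 387 normalised counts with MS8815, against 10.6 and 20.9 with DMSO (log2 fold change 4.51 ± 0.35). HIST1H2BN had 511 and 455 with MS8815, against 33.3 and 36.4 with DMSO (3.75 ± 0.19). The annotated HIST1H2BN gene spans HIST1H2AL on its own strand and HIST1H2AK on the other, and the sources used here do not give whether counting used strand, so reads of these genes cannot be told apart. HIST1H2BK, the most abundant member with DMSO, had 546 and 651 with MS8815, against 302 and 319 with DMSO. Its log2 fold change of 0.94 ± 0.13 was the smallest among the 29 called. HIST1H2BD had 237 and 254 with MS8815, against 103 and 85.5 with DMSO (1.38), and HIST2H2BE had 107 and 80.9 with MS8815, against 46.7 and 44.7 with DMSO (1.01). All 5 members of the polyadenylated list were called higher with MS8815, but after quantile normalisation only HIST1H1C and HIST1H2BK of the 5 were, and HIST2H2BE turned to -0.22. With each library left out in turn only HIST1H1C of the 5 was called every time.

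Among the H3 and H4 genes, 4 of 10 (40%) and 3 of 11 (27.3%) were higher, with medians of 1.02 and 0.98. Of all genes 24.5% were called higher, and 30.3% of those in the lower 50% by level, so the H4 share was near that background. HIST1H3A and HIST1H3C of the 4, and HIST1H4K of the 3, were not in all 3 tables. HIST2H3D had 220.0 and 244 normalised counts with MS8815, against 23.1 and 18.9 with DMSO (log2 fold change 3.41 ± 0.25). HIST1H3H had 84.2 and 69.5 with MS8815, against 29.6 and 25.9 with DMSO (1.43), and after quantile normalisation it was not called (0.11, limma adjusted p = 0.767). HIST1H4I had 685 and 602 with MS8815, against 48.7 and 36.3 with DMSO (3.90 ± 0.21). HIST1H4C had 151 and 68.0 with MS8815, against 64.0 and 65.1 with DMSO, and was not called (limma adjusted p = 0.242). HIST1H3A had 21.4 and 19.8 with MS8815, against 0 and 0.652 with DMSO, and its ratio per depth was 61.2, with a 95% counting interval of 10.1 to 2505. HIST2H2BA, a pseudogene of H2B, had 50.9 and 34.0 with MS8815, against 0 and 1.96 with DMSO, a ratio of 41.5 with an interval of 13.5 to 208. Both intervals pool the reads of a group and leave out the spread between its libraries. HIST1H3A was listed only in the MS8815 table, through its MS8815 reads, so its ratio is no support for a rise. HIST2H2BA was absent from the EPZ-6438 table, which holds the same DMSO libraries. Its ratio is therefore no support either.

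Among the H1 genes, HIST1H1C had 354 and 404 normalised counts with MS8815, against 88.4 and 90.2 with DMSO (log2 fold change 2.07 ± 0.16). HIST1H1E had 80.8 and 68.1 with MS8815, against 27.7 and 26.0 with DMSO (1.43). HIST1H1B had 37.9 and 25.5 with MS8815, against 28.3 and 37.6 with DMSO, and the groups overlapped. After quantile normalisation HIST1H1C stayed higher (1.43), HIST1H1E was no longer called (0.11, limma adjusted p = 0.759) and HIST1H1B was called lower (-1.38, adjusted p = 0.0267).

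**Figure D3:**
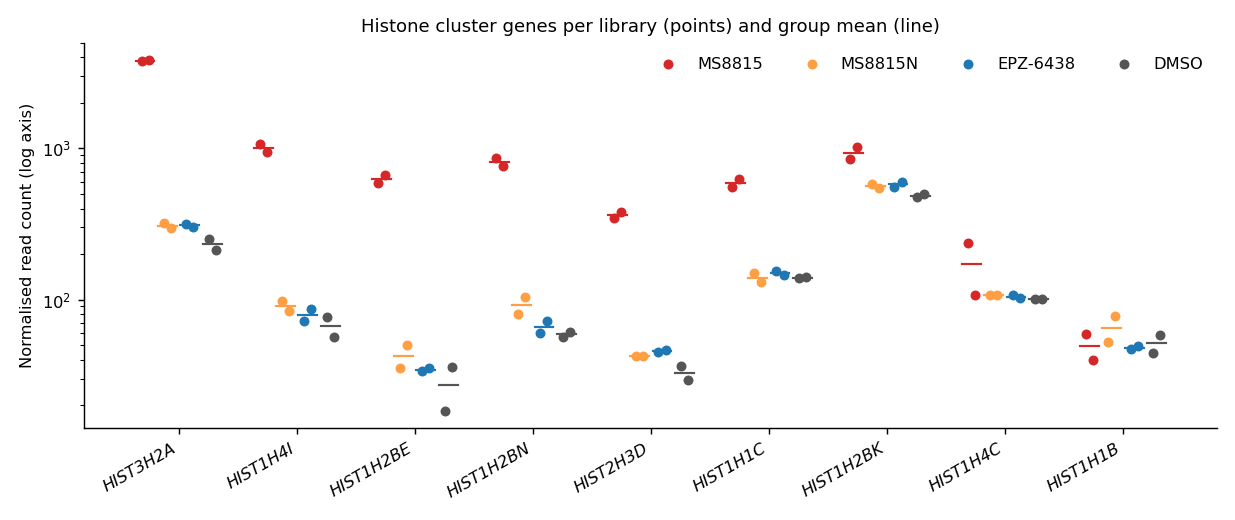
Normalised read counts (y axis, log scale, tables joined on the scale of the MS8815N table) of 9 histone cluster genes in every library, with group means as lines. HIST3H2A stands at 3786 and 3830 with MS8815 and between 211 and 320 in the other libraries, while HIST1H1B overlaps across the groups.

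Several members are near-identical copies, and their calls have to be read together. HIST2H3A and HIST2H3C are identical over 1656 bases. In the MS8815N table HIST2H3C had 87.6 and 111 normalised counts with MS8815N, against 0 and 0 with DMSO, and HIST2H3A had 0 and 0 with MS8815N, against 76.2 and 62.5 with DMSO. In the EPZ-6438 table HIST2H3C had 86.3 and 106 with EPZ-6438, against 0 and 0 with DMSO, and HIST2H3A had 0 and 0 with EPZ-6438, against 71.9 and 58.9 with DMSO. With MS8815 the reads were on HIST2H3A in library 1 (258 and 0) and on HIST2H3C in library 2 (0 and 274). Each library thus listed 1 of the 2 copies at 0. Summed, the pair had 258 and 274 with MS8815, against 48.7 and 40.1 with DMSO (log2 fold change 2.56 ± 0.21, limma adjusted p = 0.000244). The sum was 87.6 and 111 with MS8815N, against 76.2 and 62.5 with DMSO (0.51 ± 0.23, adjusted p = 0.352). It was 86.3 and 106 with EPZ-6438, against 71.9 and 58.9 with DMSO (0.55 ± 0.23, adjusted p = 0.291).

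HIST1H4K and HIST1H4J are also identical over the 312 bases of the HIST1H4K transcript, while the annotated HIST1H4J transcript has 373 bases. HIST1H4K had 87.4 and 111 normalised counts with MS8815, against 0 and 0 with DMSO, at least 50.6-fold higher when set against 3 reads per DMSO library. It was listed only in the MS8815 table, through its MS8815 reads, so a difference was fixed in advance. HIST1H4J had 23.0 and 25.5 with MS8815, against 40.3 and 42.4 with DMSO. The sum was 110.4 and 137 with MS8815, against 40.3 and 42.4 with DMSO (log2 fold change 1.55 ± 0.25, adjusted p = 0.00432). The first 60 coding bases of both, and of HIST1H4I for comparison, are shown because reads within identical bases cannot be assigned to 1 copy. Capitals mark bases of HIST1H4I that differ from HIST1H4K. The transcripts are from GENCODE 29 on chromosome 6. HIST1H4J had 0 differences from HIST1H4K over 312 coding bases and HIST1H4I had 31.
HIST1H4K: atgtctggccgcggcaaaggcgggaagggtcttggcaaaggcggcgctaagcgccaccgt
HIST1H4J: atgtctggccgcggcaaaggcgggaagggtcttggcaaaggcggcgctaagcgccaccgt
HIST1H4I: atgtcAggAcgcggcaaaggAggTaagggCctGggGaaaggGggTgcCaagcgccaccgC

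HIST2H2AA3 with HIST2H2AA4 summed to 331 and 278 with MS8815, against 117 and 112 with DMSO (log2 fold change 1.40, adjusted p = 0.00156). HIST2H4A with HIST2H4B summed to 224 and 171 with MS8815, against 45.4 and 43.8 with DMSO (2.11, adjusted p = 0.00131). The pseudogene pair HIST2H2BC and HIST2H2BD summed to 32.9 and 28.3 with MS8815, against 32.3 and 27.3 with DMSO (0.04).

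**Figure D4:**
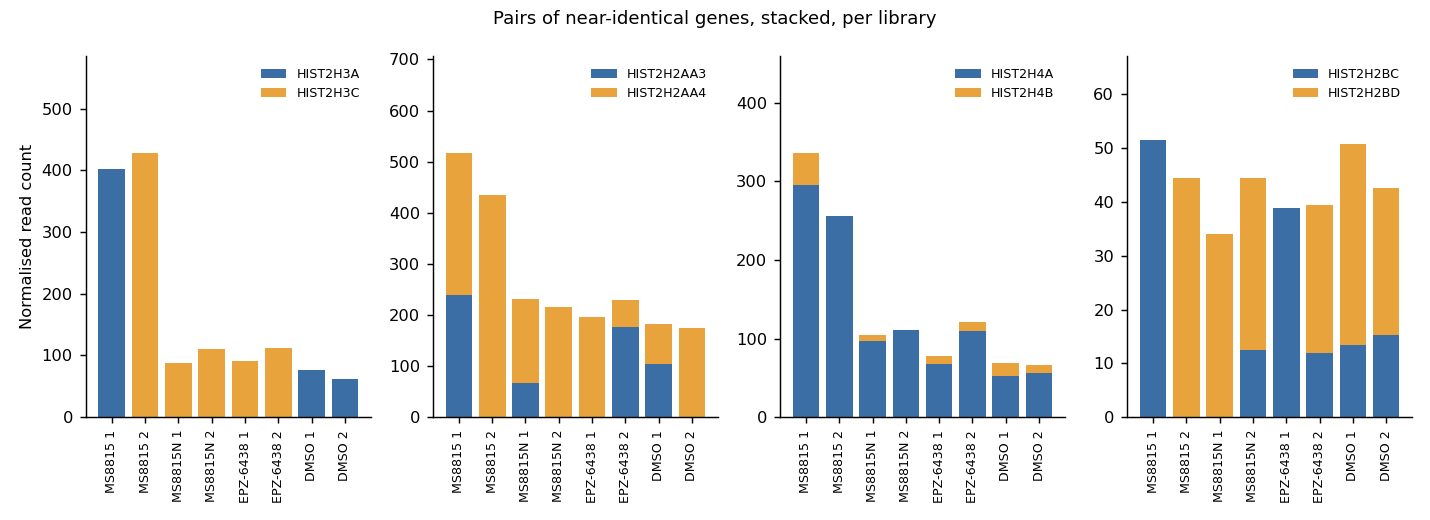
Normalised read counts (y axis, joined scale) of 4 pairs of near-identical histone genes, stacked, in each library. Each library shows either HIST2H3A or HIST2H3C, and their sum stands at 402 and 428 with MS8815 and between 62.5 and 113 elsewhere.

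Apart from HIST2H3A and HIST2H3C, no member was called with MS8815N or EPZ-6438. With MS8815N the 2 calls were 1 higher and 1 lower of 52 members, against 0.288% and 0.245% of all genes, and with EPZ-6438 1 higher and 1 lower of 49, against 0.0164% each. After the copies were summed limma called 0 members in either comparison. Among members without a near-identical copy, 4 of 43 with MS8815N (9.30%, all higher) and 2 of 40 with EPZ-6438 (5%, both higher) had an unadjusted p under 0.05, against 15.7% and 16.8% of all genes in those tables. The median log2 fold change was 0.34 with MS8815N and 0.23 with EPZ-6438, and 0.00 and 0.01 over all genes. Both libraries lay above both DMSO libraries for 24 members with MS8815N, against 23.5% of all genes, and for 20 with EPZ-6438, against 24.3%.

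The summed counts of the members were 101 and 104 CPM with MS8815N, against 85.1 and 81.1 with DMSO, 1.23-fold, and 95.6 and 106 with EPZ-6438, against 84.8 and 80.9 with DMSO, 1.21-fold. HIST3H2A had 320 and 297 normalised counts with MS8815N, against 253 and 211 with DMSO (log2 fold change 0.41, limma adjusted p = 0.223). It had 297 and 285 with EPZ-6438, against 238 and 199 with DMSO (0.42, adjusted p = 0.207). HIST1H1C had 149 and 131 with MS8815N, against 139 and 141 with DMSO, and the groups overlapped. All 3 compounds were compared with the same DMSO libraries.

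The compounds were also compared with each other at 2.5 µM and 18 h, in 3 pairs, with limma on the 8 libraries of the joined scale and p-values adjusted over all 17467 genes. MS8815 was higher than MS8815N for 22 of 48 members and lower for 0, against 24.2% and 26.3% of all genes. It was higher than EPZ-6438 for 23 and lower for 0, against 24.2% and 26.3%. Adjusted over the 3 pairs as well, both counts were 22. HIST3H2A differed by 3.62 (95% interval 3.36 to 3.88) between MS8815 and MS8815N and by 3.62 (3.36 to 3.87) between MS8815 and EPZ-6438, on the log2 scale. HIST1H2BK differed by 0.74 (0.48 to 0.99) and by 0.69 (0.43 to 0.94).

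Between MS8815N and EPZ-6438 limma called 0 of 48 members, against 0.166% of all genes higher and 0.00573% lower, and 0 had an unadjusted p under 0.05. The smallest p was 0.051, for HIST1H2BN, with a difference of 0.48 (-0.00 to 0.95). The 95% interval of the difference lay within 1 of 0 for 20 members and reached past 1 on at least 1 side for the other 28. HIST3H2A differed by -0.01 (-0.27 to 0.25).

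Members that share a promoter region were set side by side. By the outer ends of the GENCODE genes, start sites of 10 head-to-head pairs lay within 1000 bases. The RefSeq promoters of HIST1H2AK and HIST1H2BN also overlap on opposite strands, as do those of HIST1H3D and HIST1H2BF. These pairs are not among the 10. Their log2 fold changes with MS8815 were 1.87 and 3.75, and -0.95 and 0.82. HIST3H2A and HIST3H2BB, 233 bases apart, had log2 fold changes with MS8815 of 4.03 and 3.76. HIST3H2BB had 34.7 and 35.5 normalised counts with MS8815, against 3.29 and 0.647 with DMSO. HIST1H2AM and HIST1H2BO, 313 bases apart, had 2.03 and 3.14, and HIST1H2BL and HIST1H2AI, 267 bases apart, had 3.42 and 1.95. HIST1H3J, counted in a further pair with HIST1H2BO, starts inside HIST1H2AM on the same strand. Their transcripts are 100% identical over 88.0% of the shorter, so reads of the shared bases cannot be told apart. HIST2H2BE and HIST2H2AC, 322 bases apart, had 1.01 and 0.00, with only HIST2H2BE called. Of the H2A and H2B members with a matched promoter, 9 of 16 with the octamer and 8 of 9 without it were higher with MS8815, against 24.5% of all genes. Head-to-head partners share promoter bases and are not separate cases. Of the 28 members with a stem-loop in an annotated transcript 14 were called higher, against the same 24.5%. Of the 28 without one there 15 were. The latter include transcripts annotated without a 3′ end, so the 2 groups do not separate genes with and without a stem-loop. A link of the octamer or the stem-loop with the calls was not tested.

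**Figure D5:**
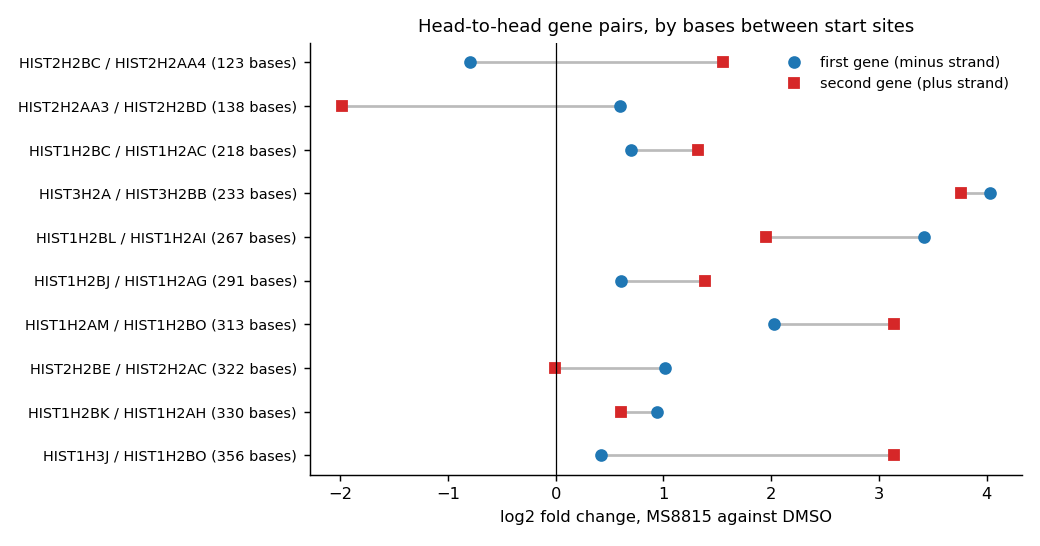
Log2 fold change with MS8815 against DMSO (x axis) of both genes of 10 head-to-head pairs, ordered down the page by the bases between their start sites. HIST3H2A and HIST3H2BB are close together at 4.03 and 3.76, while HIST1H3J and HIST1H2BO lie apart at 0.42 and 3.14. HIST1H3J starts inside HIST1H2AM on the same strand, so its pair and that of HIST1H2AM with HIST1H2BO are the same locus, with shared reads.

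Histone genes outside the clusters and genes that handle histone mRNA or protein were set beside the members. With MS8815, 4 of 11 replication-independent histone genes were higher and 6 lower, against 5 and 3 after quantile normalisation and 11 and 0 when scaled to B cell markers. H1F0, which encodes H1.0, had 2049 and 2151 normalised counts with MS8815, against 156 and 184 with DMSO (log2 fold change 3.62). H2AFJ had 266 and 243 with MS8815, against 14.8 and 16.5 with DMSO (3.94). H2AFZ and H2AFX, which encode H2A.Z and H2A.X, fell by 0.73 and 0.47, and turned to 0.29 and 0.54 when scaled to B cell markers. Of 24 genes for histone mRNA transcription, processing and decay, 1 was higher and 15 lower, among them SLBP, which binds the stem-loop, at -0.74 and CPSF3, which cuts the 3′ end, at -0.82. Of 21 histone chaperones 19 were lower, with NASP, which holds H3 and H4, at -0.79. Of 27 S phase genes all 27 were lower, with PCNA, the DNA clamp of replication, at -0.77. After quantile normalisation the histone mRNA list had 0 higher and 11 lower, the chaperones 0 and 14 and the S phase genes 0 and 19. Scaling to B cell markers, which moves the median of all genes to 0.99, turned the 3 lists to 22, 21 and 22 higher and 0 lower. Their medians there were 0.63, 0.51 and 0.41, below that of all genes. With EPZ-6438 limma called 0 genes of each of these lists, and with MS8815N 0 as well. At an unadjusted p under 0.05 12 of 27 S phase genes were lower with MS8815N (44.4%, against 15.7% of all genes in either direction) and 9 were lower with EPZ-6438 (33.3%, against 16.8%).

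Other transcripts moved beside the members in the MS8815 libraries. Of 17 other RNAs known to lack a poly(A) tail, 16 were higher, with a median of 4.03. RN7SL1, the RNA of the signal recognition particle, differed by 4.14, and RN7SK, the RNA that holds P-TEFb, by 4.03. The 17 RNAs together made up 1.65% and 1.67% of counts with MS8815, against 0.0995% and 0.0952% with DMSO. With MS8815N, RN7SL1 differed by 0.50 (limma adjusted p = 0.00557) and RN7SK by 0.52 (adjusted p = 0.04997), and they were the 2 called of 16. Of 18 listed markers of adherent cells, 15 were higher with MS8815 and TAGLN2 was lower, with a median of 3.66, and KRT8 had 3275 and 3247 with MS8815, against 199 and 192 with DMSO. They summed to 0.225% and 0.232% of counts with MS8815, against 0.102% and 0.101% with DMSO. None of the 18 was at 0 in both libraries of a group, and COL3A1 and LUM of the list were not in that table. Of 23 B cell markers 21 were lower, with a median of -1.02, and they summed to 0.373% and 0.392% of counts with MS8815, against 0.799% and 0.800% with DMSO. Of 3 T or NK cell markers 0 were called. The part of these transcripts and of read depth in the result for the members was not tested. In bulk RNA, fewer cells of a type and less RNA per cell cannot be told apart.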

How the data were processed

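RNA was measured in 8 libraries of SUDHL6 cells, 2 a group. Salmon, STAR 2.4.2 and the GRCh38 build are named in the submitters' processing notes. The authors deposited 3 tables of log2-like values, variance-stabilised by DESeq2 as the tables are named, each holding 1 compound and the same DMSO libraries. The transform was inverted in closed form to normalised counts. Depth was estimated from the spacing of low values, of which 37.8% to 61.3% were whole reads within 0.02. Between tables, DMSO values differed only by gene and library constants (largest deviation 7.04e-11 log2), which allowed the joined scale.

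Calls used limma 3.58.1 (R 4.3.3) with a variance trend on the deposited values. Fold changes used log2(normalised count + 1). Benjamini-Hochberg adjustment covered all genes, at 0.05. The fit was tested on simulated data. Annotation is GENCODE 29. Copies were members of the same class, at least 99% identical over at least 80% of the shorter transcript (BLAST 2.17.0). HIST1H2AM and HIST1H3J, of different classes, overlap on the same strand and were not counted as copies. Genes were named by level in each class, size of change and fixed lists. Members and lists were chosen with earlier results of these data known. Replicate numbers were not taken as pairs.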

Additional observations from a re-analysis of the deposited data

How the results depend on the processing

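Most members have few reads at this depth, and with 2 libraries a group a missed threshold says little. With MS8815 against DMSO, the number of members called was 19 after quantile normalisation and 6 of 6 when the lower 50% of genes was left out, and 13 to 33 with a library left out. The median log2 fold change was 0.94 with a pseudocount of 10, 0.42 after quantile normalisation (all genes -0.20), 2.42 when scaled to B cell markers (all genes 0.99), 3.83 without the lower 50% of genes and 1.13 in the joined fit, and 1.37 to 1.56 with a library left out. With EPZ-6438 the number called was 1 with a pseudocount of 0.1 and 0 without the lower 50% of genes, in the joined fit, after summing copies, and with any library left out (0 to 0). Its median was 0.026 after quantile normalisation, 0.34 without the lower 50% of genes, and 0.15 to 0.34 with a library left out. With MS8815N the number called was 0 without the lower 50% of genes, in the joined fit, after summing copies, and with any library left out (0 to 0). Its median was 0.26 with a pseudocount of 10, 0.18 after quantile normalisation, 0.41 when scaled to B cell markers, and 0.22 to 0.36 with a library left out. Without the lower 50% of genes MS8815 differed from MS8815N in 2 of 2 members and from EPZ-6438 in 2 of 2. That filter used the mean over all libraries of the fit, MS8815 included, and did so for MS8815 against DMSO as well. The 6 of 6, the median of 3.83 and the 2 of 2 are therefore no check. Scaled to B cell markers, MS8815 differed from EPZ-6438 in 35 members. The counts of calls given here have no share of all genes beside them. The members' share of counts with MS8815 was 0.0378% over the genes in all 3 tables and 0.0395% without the other RNAs lacking a poly(A) tail. HIST2H2BE with MS8815 was -0.22 after quantile normalisation (limma adjusted p = 0.535), and HIST2H3A ran from -5.50 without MS8815 library 1 (limma adjusted p = 0.0102) to 2.52 without MS8815 library 2. Where a library was left out, the lone library of its group was assumed to vary like the others. The cause of these shifts was not tested, except that a stricter filter and summed copies leave fewer genes. With the replicate number as a block, 28 members were called with MS8815, 2 with MS8815N, 2 with EPZ-6438, and 22, 22 and 0 in the 3 compound pairs. Deviations of same-numbered libraries had correlations of -0.01, 0.05 and -0.04 in the MS8815, MS8815N and EPZ-6438 tables, so the numbers were not taken as pairs. Summing copies, leaving HIST3H2A out of the sums and restricting to members in all 3 tables were chosen after seeing the data.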
